A study of Mus musculus with 10 samples.

Results

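The genes described here are 10 that mark mesothelium, the cell layer lining the peritoneal cavity: Msln, Upk3b, Upk1b, Krt19, Lrrn4, Wt1, Muc16, Rspo1, Bnc1 and Gpm6a. They were taken by name, by a rule that uses no measured value, though with earlier results of these data known, from the 21877 gene symbols of a table of RNA sequencing counts of mouse peritoneum. All 10 were in the table, and all 10 passed the filter on low counts that left 15385 genes for testing.

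Mesothelial cells form a thin, slippery sheet with microvilli and a coat of surface glycoproteins over the organs and the body wall. They carry keratins like an epithelium but arise from mesoderm and keep transcription factors of that origin, such as Wt1. In peritoneal dialysis the dialysis fluid lies directly against this sheet, which can be damaged or shed over time.

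The mice were male C57BL/6, and the tissue of every sample was peritoneum. The 4 groups were Mr1-/- mice given 4.25% PD fluid (2 libraries), Mr1-/- mice given PBS (2 libraries), Mr1+/+ mice given 4.25% PD fluid (3 libraries) and Mr1+/+ mice given PBS (3 libraries), each by intraperitoneal injection over 6 weeks. Mr1 encodes the antigen-presenting molecule of mucosal-associated invariant T cells. The labels do not say how the Mr1-/- allele was made, how old the mice were, or which animal each library came from, so each p-value rests on the variation among these libraries alone, part or all of which could be technical.

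The libraries held 14145635 to 16335799 counts each. Mr1 was at 1.97 to 2.46 CPM (counts relative to library size, scaled by edgeR's TMM factors) in the 4 Mr1-/- libraries and at 20.3 to 32.6 CPM in the 6 Mr1+/+ libraries. Compared by the mean chi-square over genes, the 2 Mr1-/- PD fluid libraries differed by 1.74, Mr1+/+ PBS libraries 1 and 2 by 2.23, and the remaining 6 within-group pairs by 18.6 to 118. These 2 pairs were far closer than any other, although not as close as counting noise alone, for which the value is 1, and each was summed and counted as 1 sample. That left 8 samples: 1 of Mr1-/- PD fluid, 2 of Mr1-/- PBS, 3 of Mr1+/+ PD fluid and 2 of Mr1+/+ PBS. The lone Mr1-/- PD fluid sample was assumed to vary like the others. Mr1+/+ PBS replicate 3 stood apart, with transcripts of intestinal epithelium and pancreas. For many results that rest on it, though not for all, the value without it is also given.

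Upk3b had the highest level for its length among the 10 genes, and Muc16 the lowest. Upk3b, a uroplakin that mesothelium shares with the bladder lining, had a median of 18.4 RPKM (CPM per kilobase of exon) over the 8 samples. Then came Krt19, a keratin of simple epithelia, at 12.6 RPKM, and Gpm6a, a membrane glycoprotein of the proteolipid family, at 10.2 RPKM. Upk1b, a tetraspanin uroplakin (7.28 RPKM), Rspo1, a secreted amplifier of Wnt signalling (7.03 RPKM), Msln, the surface glycoprotein mesothelin (6.17 RPKM), and Lrrn4, a leucine-rich repeat membrane protein (5.49 RPKM), followed closely. The transcription factors were lower, with Wt1, a zinc finger protein, at 3.1 RPKM and Bnc1, the zinc finger protein basonuclin, at 1.01 RPKM. Muc16, a giant membrane mucin known as CA125, had 0.309 RPKM over an exon length of 26350 bases.

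Each gene ranged widely, and the ranges of all 9 pairs of neighbours in this order overlapped. Within samples, Gpm6a was above Upk1b, Lrrn4 above Wt1, Wt1 above Bnc1 and Bnc1 above Muc16 in 8 of 8, while the order of the other 5 pairs differed between samples. Upk3b, for example, ran between 7.36 and 52.2 RPKM, Gpm6a between 6.46 and 22.9 RPKM, and Lrrn4 between 1.58 and 11.9 RPKM. The ends of the order are separate: the highest Muc16 sample had 0.744 RPKM, below the lowest sample of the 8 genes from Upk3b to Wt1, where Wt1 had the lowest value at 0.863 RPKM. The highest sample of Bnc1, at 1.92 RPKM, was above the lowest samples of Lrrn4 and Wt1.

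The data were checked for tissues that share these genes. The bladder uroplakins Upk2 and Upk3a and the basal keratin Krt5 had 0 counts in all 10 libraries, which allows up to 0.212 CPM of each in any library (3 counts in the smallest scaled library, counting error only). Upk1a, the partner of Upk2 in the bladder plaque, had 0 to 24 counts. The 7 urothelial markers summed to 80.2 to 83.4 CPM in Mr1-/- PD fluid, 53.8 to 64.2 CPM in Mr1-/- PBS, 124.2 to 158.9 CPM in Mr1+/+ PD fluid and 26.4 to 68.2 CPM in Mr1+/+ PBS, and of these 7 only Upk1a and Pparg, a regulator of fat cells as well, passed the filter. Wt1 is also made by Sertoli cells and kidney podocytes. Markers of germ and Sertoli cells, 5 in number, summed to at most 10.1 CPM. The 5 podocyte markers that passed the filter summed to 173.1 to 181.9 CPM in Mr1-/- PD fluid, 93.7 to 152.6 CPM in Mr1-/- PBS, 174.7 to 222.2 CPM in Mr1+/+ PD fluid and 120 to 141.2 CPM in Mr1+/+ PBS. Much of this was Podxl, which vessels and mesothelium also make, at 114.8 to 120.6 CPM in Mr1-/- PD fluid, 49.2 to 92.4 CPM in Mr1-/- PBS, 103.7 to 139.5 CPM in Mr1+/+ PD fluid and 64.1 to 76.1 CPM in Mr1+/+ PBS. These sums were higher with PD fluid in both genotypes, as was Wt1, edgeR called none of the 5, and their part in the Wt1 values was not tested. Gpm6a is abundant in neurons: 7 neuron and glia markers summed to 16.6 to 17 CPM in Mr1-/- PD fluid, 20.9 to 50.1 CPM in Mr1-/- PBS, 16.2 to 25.5 CPM in Mr1+/+ PD fluid and 14.5 to 15.4 CPM in Mr1+/+ PBS.

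**Figure D1:**
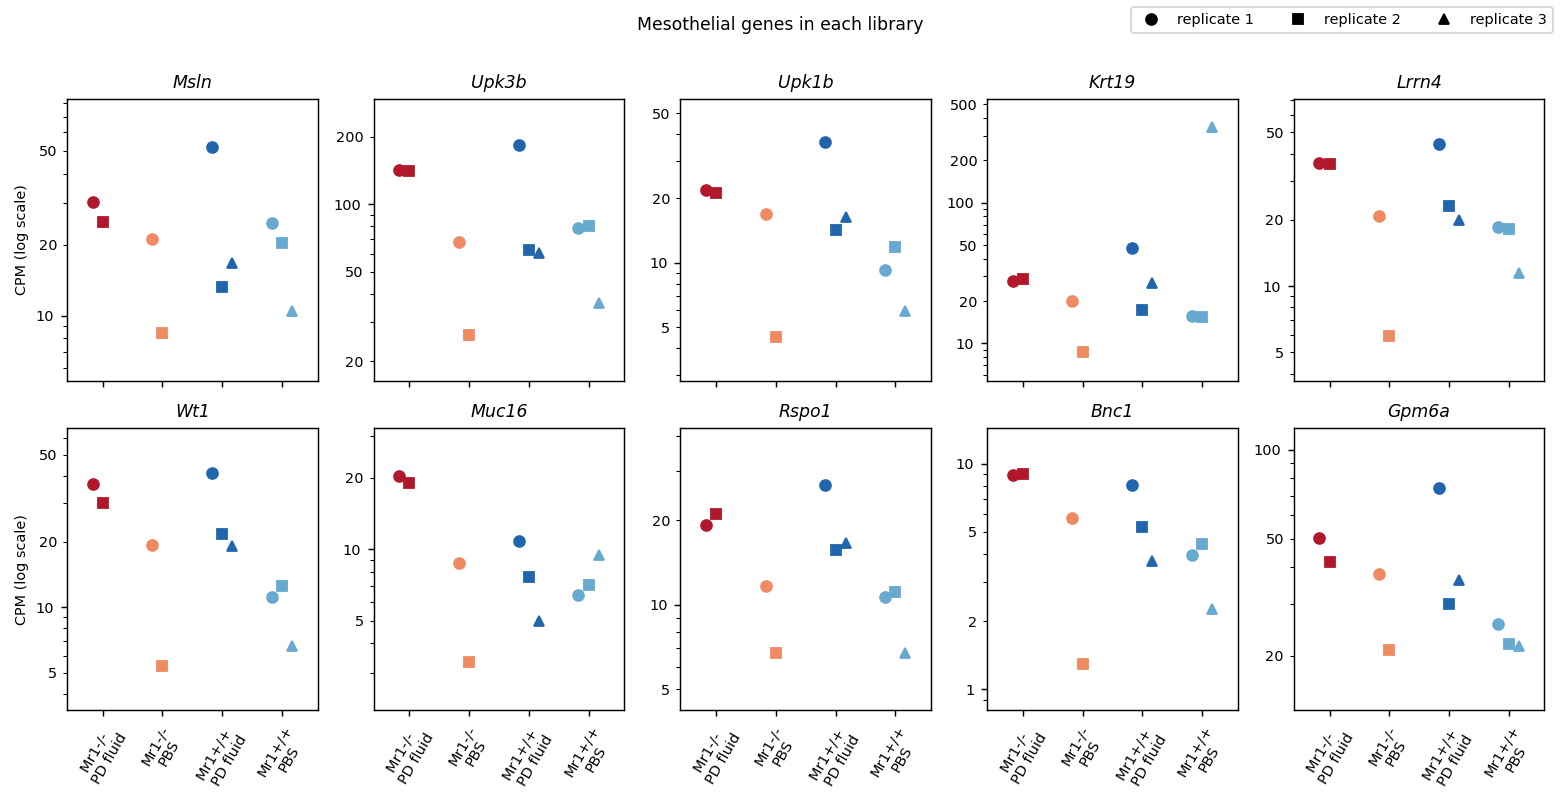
CPM (log scale) of each mesothelial gene in each of the 10 libraries, by group, with 1 symbol per replicate. Mr1+/+ PD fluid replicate 1 lies above replicates 2 and 3 in all 10 panels, Mr1-/- PBS replicate 1 lies above replicate 2 in all 10, and Krt19 reaches 343.5 CPM in Mr1+/+ PBS replicate 3.

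The 10 genes also differed widely between samples of the same group, and in 3 of the 5 such pairs all 10 differed in the same direction. Mr1+/+ PD fluid replicate 1 is in 2 of these 3 pairs, so the pairs are not separate observations. In Mr1+/+ PD fluid, all 10 were higher in replicate 1 than in replicate 2, with a median log2 ratio of 1.12, and all 10 were higher in replicate 1 than in replicate 3, again with a median of 1.12. Over all 15385 tested genes these medians were -0.03 and 0.00. Between replicates 2 and 3 of that group the members' median log2 ratio was -0.02. In Mr1-/- PBS all 10 were higher in replicate 1 than in replicate 2, by a median of 1.38 on the log2 scale, against 0.03 over all genes. In Mr1+/+ PBS, replicate 3 was lower than the sum of replicates 1 and 2 for 8 of 10 genes, with a median log2 ratio of -0.76, and higher for Krt19 (4.46) and Muc16 (0.48).

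**Figure D2:**
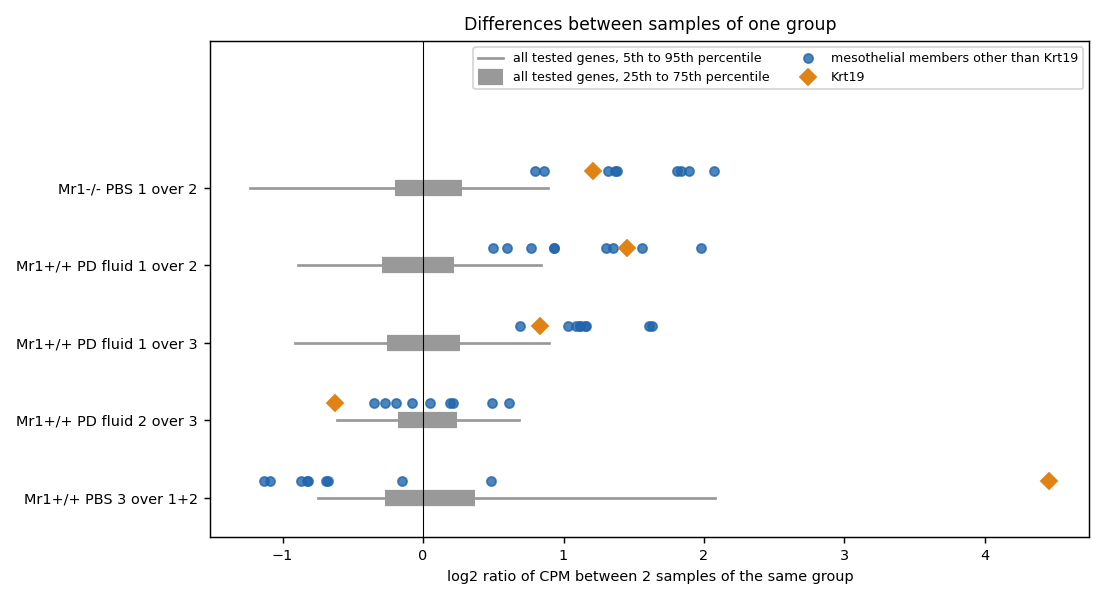
Log2 ratio of CPM between 2 samples of the same group for each of the 10 genes (points; Krt19 as a diamond), above the 25th to 75th percentile (thick bar) and 5th to 95th percentile (line) of all 15385 tested genes. All 10 members lie right of 0 for Mr1-/- PBS replicate 1 over 2 and for Mr1+/+ PD fluid replicate 1 over 2 and over 3.

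This spread was wider than that of most genes. The within-group standard deviation of log2 CPM, pooled over the groups with at least 2 samples, had a median of 0.86 over the 10 genes and of 0.25 over all tested genes. Rspo1 varied least of the 10, with 0.48, which is above 78% of all genes, and Krt19 most, with 1.71, above 97.3% of all genes. The Krt19 value includes Mr1+/+ PBS replicate 3 and is not given without it. Markers of other cells also differed between these samples. The 9 pancreatic acinar markers summed to 119.7 CPM in Mr1+/+ PD fluid replicate 1, the sample with the highest mesothelial values, against 2415.5 and 2851.1 CPM in replicates 2 and 3. In Mr1-/- PBS the same markers summed to 508.4 CPM in replicate 1 and 218.8 CPM in replicate 2, and 8 fibroblast markers summed to 1848.9 and 1379.7 CPM. Their part in the mesothelial differences was not tested. In whole tissue, fewer mesothelial cells and less RNA per cell cannot be told apart.

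Ratios among the members were steadier than their levels. Upk3b ranged over 2.82 on the log2 CPM scale across the 8 samples, but over only 0.62 relative to the mean of the other members, Krt19 left out. Lrrn4 and Bnc1 each ranged over 0.66 in this relative measure, Upk1b over 0.75, Rspo1 over 0.77 and Wt1 over 0.95. Msln, at 1.10, and Gpm6a, at 1.16, followed the others less closely. The widest were Muc16, at 1.98, and Krt19, at 5.25. The Krt19 range rests on Mr1+/+ PBS replicate 3, at 5.18 above the other members. In every other sample Krt19 lay between -0.07 and 0.74 on this relative scale. Muc16 was closest to the other members in Mr1+/+ PBS replicate 3 (0.02 above their mean log2 CPM) and next in the Mr1-/- PD fluid sample (-0.65), and farthest below them in Mr1+/+ PD fluid replicate 1 (-1.96).

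The bases before the members' gene starts were searched for motifs of factors at work in mesothelium: GGAATG, bound by TEAD factors of the Hippo pathway, AGATAAG for GATA factors and GCGTGGGNG for WT1 and EGR proteins. RefSeq's table held start sites for 6 of the 10 genes (7 windows of up to 250 bases upstream, build GRCm38.p6). Both strands were read. GGAATG stood in 1 window each of Upk3b, Lrrn4 and Gpm6a, whose sequences follow, 5′ to 3′ along the gene, with the motif in capitals; in Upk3b it lies on the opposite strand and reads CATTCC.
Upk3b (chr5:136038246-136038495, plus strand): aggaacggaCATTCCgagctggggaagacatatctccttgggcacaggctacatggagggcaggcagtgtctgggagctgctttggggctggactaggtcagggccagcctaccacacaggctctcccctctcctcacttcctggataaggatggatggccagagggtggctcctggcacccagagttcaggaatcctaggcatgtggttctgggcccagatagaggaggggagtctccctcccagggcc
Lrrn4 (chr2:132880892-132881112, minus strand): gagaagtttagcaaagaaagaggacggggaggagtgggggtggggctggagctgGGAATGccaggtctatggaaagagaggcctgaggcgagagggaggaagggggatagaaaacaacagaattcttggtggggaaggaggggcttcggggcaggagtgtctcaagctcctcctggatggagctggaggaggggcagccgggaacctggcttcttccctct
Gpm6a (chr8:54779184-54779433, plus strand, the more distant of its 2 listed start sites): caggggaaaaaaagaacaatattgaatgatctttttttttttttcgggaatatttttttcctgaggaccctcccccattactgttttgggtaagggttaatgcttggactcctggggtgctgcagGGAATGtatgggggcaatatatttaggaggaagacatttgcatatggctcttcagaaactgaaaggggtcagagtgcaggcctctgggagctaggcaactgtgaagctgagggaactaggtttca
The Upk3b window ends at the base before the annotated gene (mm10 chromosome 5, 136038496 to 136046487), and the Lrrn4 window, shortened to 221 bases, at the base before the annotated gene (mm10 chromosome 2, 132868305 to 132880891). The Gpm6a window lies upstream of the GENCODE M21 gene (mm10 chromosome 8, 54954843 to 55060871). Of all 32851 windows in the table, 12.6% held GGAATG, 2.74% AGATAAG and 1.65% GCGTGGGNG. Neither of the last pair of motifs was in a member's window, among them those of Muc16, Rspo1 and Bnc1. A match is a string of letters and was not tested as a binding site.

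The first comparison set 4.25% PD fluid against PBS in Mr1-/- mice. All 10 genes were higher in the lone Mr1-/- PD fluid sample than in both Mr1-/- PBS samples, an arrangement found for 28.7% of all tested genes, and no member was called by edgeR's quasi-likelihood test at a Benjamini-Hochberg adjusted p under 0.05. The share of all genes called was 0%. Without adjustment 2 of 10 members had p under 0.05, against 1.5% of all genes, and DESeq2 called 0 members and 0.0195% of all genes. The median log2 fold change over the members was 1.24, against -0.01 over all genes. It was 2.36 without Mr1-/- PBS replicate 1 and 0.71 without Mr1-/- PBS replicate 2. Acinar markers summed to 3921.9 to 3987.7 CPM in Mr1-/- PD fluid and 218.8 to 508.4 CPM in Mr1-/- PBS libraries, and fibroblast markers to 2788.6 to 2803.6 CPM in Mr1-/- PD fluid and 1379.7 to 1848.9 CPM in Mr1-/- PBS. None of these markers was called, and their part in the mesothelial values was not tested.

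The second comparison set PD fluid against PBS in Mr1+/+ mice. Here too edgeR called no member, while 14.9% of all tested genes were called (8.49% higher and 6.37% lower). At an unadjusted p under 0.05 there was 1 member, Rspo1, against 34.1% of all genes. Upk1b, Lrrn4, Wt1, Rspo1 and Gpm6a had each of the 3 Mr1+/+ PD fluid values above both Mr1+/+ PBS values, an arrangement that 25% of all genes had. The members' median log2 fold change was 0.89, against -0.06 over all genes, 0.49 without Mr1+/+ PD fluid replicate 1 and 0.76 without Mr1+/+ PBS replicate 3. DESeq2 called 4 of the 10 higher (Upk1b, Wt1, Rspo1 and Gpm6a; adjusted p between 0.0142 and 0.0418), where it called 24.6% of all genes. With the 10 libraries taken as separate samples, edgeR called Wt1, Rspo1 and Gpm6a higher (adjusted p between 0.0159 and 0.0487), where 37.5% of all genes were called.

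In those Mr1+/+ samples the markers of other cells moved as well. Of 8 adipocyte markers 7 rose by edgeR's test, with sums of 12503.5 to 18509.3 CPM in Mr1+/+ PD fluid and 4057.5 to 5341.4 CPM in Mr1+/+ PBS libraries. Of 8 fibroblast markers 7 rose, with sums of 3974.6 to 5233.2 CPM in Mr1+/+ PD fluid and 1420.2 to 1743.5 CPM in Mr1+/+ PBS. All 6 B cell markers fell, with sums of 998.3 to 1129.7 CPM in Mr1+/+ PD fluid and 1823.5 to 2902.6 CPM in Mr1+/+ PBS. Over all genes 8.49% were called higher and 6.37% lower, and without Mr1+/+ PD fluid replicate 3 no gene was called. Acinar markers summed to 119.7 to 2851.1 CPM in Mr1+/+ PD fluid and 368 to 19915.6 CPM in Mr1+/+ PBS. Intestinal epithelial markers summed to 29.1 to 36.3 CPM in Mr1+/+ PD fluid and 25.4 to 2661 CPM in Mr1+/+ PBS. None of these acinar and intestinal markers was called. The part of these other cells in the mesothelial values was not tested.

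**Figure D3:**
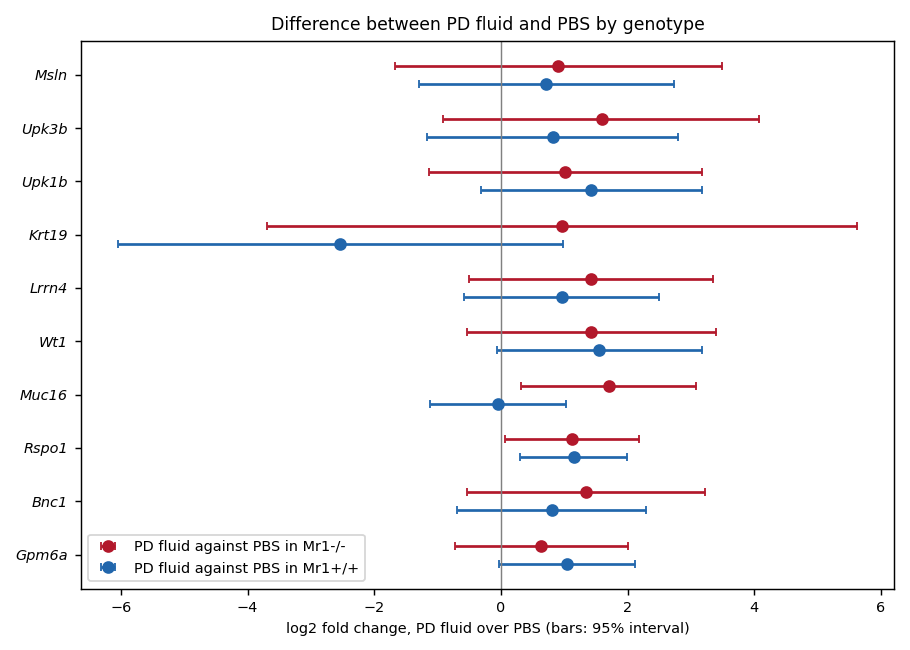
Log2 fold change of each mesothelial gene for PD fluid over PBS in Mr1-/- mice (red, upper) and in Mr1+/+ mice (blue, lower), with bars for the 95% interval from edgeR's fit. In Mr1-/- the bars of Muc16 and Rspo1 lie above 0, and in Mr1+/+ that of Rspo1 alone, and no gene passed after adjustment over 15385 genes.

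Rspo1 gave the narrowest estimate. R-spondin 1 binds the receptors Lgr4, Lgr5 and Lgr6 and raises the cell's response to Wnt ligands. It was at 20.1 CPM in the Mr1-/- PD fluid sample, against 11.7 and 6.7 CPM in Mr1-/- PBS samples, and at 26.6, 15.6 and 16.5 CPM in Mr1+/+ PD fluid samples, against 10.9 and 6.67 CPM in Mr1+/+ PBS samples. Every PD fluid sample was above every PBS sample of either genotype, an arrangement whose share over all genes was not counted. Within a genotype, 28.7% of all genes in Mr1-/- and 25% in Mr1+/+ had all PD fluid samples above all PBS samples. The log2 fold change was 1.13 in Mr1-/- (SE, standard error, 0.46; adjusted p = 1 by edgeR) and 1.15 in Mr1+/+ (SE 0.36, adjusted p = 0.0683 by edgeR). The 95% interval in Mr1+/+ was 0.31 to 1.99 before adjustment. Leaving out each library in turn gave 0.85 to 1.30 in Mr1+/+, and no such fit called it. Without Mr1+/+ PD fluid replicate 3, however, no gene at all was called. Without replicate 2 of that group 339 genes were called, against 2286 with all samples, so the missing call says little in these fits.

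Wt1, the zinc finger factor of the mesodermal lining, had the highest log2 fold change of the 10 in Mr1+/+. It was at 33.3 CPM in the Mr1-/- PD fluid sample, against 19.4 and 5.34 CPM in Mr1-/- PBS, and at 41.4, 21.6 and 19 CPM in Mr1+/+ PD fluid, against 11.8 and 6.6 CPM in Mr1+/+ PBS. The PD fluid samples were above the PBS samples within each genotype, although the higher Mr1-/- PBS sample was above the lowest Mr1+/+ PD fluid sample. The log2 fold change was 1.43 in Mr1-/- (SE 0.80, edgeR adjusted p = 1) and 1.55 in Mr1+/+ (SE 0.66, edgeR adjusted p = 0.158). Bnc1, a transcription factor of stratified epithelium, germ cells and mesothelium, had 8.93 CPM in Mr1-/- PD fluid, against 5.71 and 1.29 CPM in Mr1-/- PBS, and 8, 5.23 and 3.69 CPM in Mr1+/+ PD fluid, against 4.18 and 2.25 CPM in Mr1+/+ PBS. Its samples overlapped in Mr1+/+, where the log2 fold change was 0.80 (SE 0.64), and in Mr1-/- the value was 1.35 (SE 0.81). Exons of Bnc1 overlap those of 4833418N17Rik on the opposite strand, and as no step that marks the strand is named, reads of the pair may not be told apart. No such overlap was found for the other 9 genes.

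Gpm6a and Lrrn4 encode membrane proteins, known in mice from neurons and from mesothelium. Gpm6a was at 45.7 CPM in Mr1-/- PD fluid, against 37.9 and 20.8 CPM in Mr1-/- PBS, and at 73.8, 29.9 and 36 CPM in Mr1+/+ PD fluid, against 23.7 and 21.4 CPM in Mr1+/+ PBS. The Mr1+/+ groups did not overlap, but the higher Mr1-/- PBS sample was above 2 of the 3 Mr1+/+ PD fluid samples. Its log2 fold change was 0.64 in Mr1-/- (SE 0.57) and 1.04 in Mr1+/+ (SE 0.45, edgeR adjusted p = 0.156). Lrrn4 was at 35.9 CPM in Mr1-/- PD fluid, against 20.9 and 5.89 CPM in Mr1-/- PBS, and at 44.2, 23.1 and 19.9 CPM in Mr1+/+ PD fluid, against 18.4 and 11.4 CPM in Mr1+/+ PBS. Its groups did not overlap within either genotype, although the lowest Mr1+/+ PD fluid sample lay close to the higher Mr1+/+ PBS sample. Its log2 fold change was 1.42 in Mr1-/- (SE 0.78) and 0.96 in Mr1+/+ (SE 0.62, edgeR adjusted p = 0.328).

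The uroplakins and mesothelin coat the cell surface. Upk1b was at 21.6 CPM in Mr1-/- PD fluid, against 16.8 and 4.47 CPM in Mr1-/- PBS, and at 36.4, 14.2 and 16.2 CPM in Mr1+/+ PD fluid, against 10.5 and 5.9 CPM in Mr1+/+ PBS. Its groups did not overlap within either genotype, and its log2 fold change was 1.02 in Mr1-/- (SE 0.88) and 1.43 in Mr1+/+ (SE 0.71, edgeR adjusted p = 0.211). Upk3b was at 141.4 CPM in Mr1-/- PD fluid, against 68 and 26 CPM in Mr1-/- PBS, and at 184.1, 62.2 and 60.1 CPM in Mr1+/+ PD fluid, against 79.2 and 36 CPM in Mr1+/+ PBS. Only Mr1+/+ PD fluid replicate 1 was above both Mr1+/+ PBS samples. Its log2 fold change was 1.59 in Mr1-/- (SE 0.97) and 0.82 in Mr1+/+ (SE 0.77), and the Mr1+/+ value was 0.08 without that replicate.

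Msln likewise stood high in 1 Mr1+/+ PD fluid sample. It was at 27.7 CPM in Mr1-/- PD fluid, against 21.1 and 8.39 CPM in Mr1-/- PBS, and at 51.9, 13.1 and 16.7 CPM in Mr1+/+ PD fluid, against 22.5 and 10.5 CPM in Mr1+/+ PBS. Replicates 2 and 3 of Mr1+/+ PD fluid lay between the Mr1+/+ PBS samples. The log2 fold change was 0.91 in Mr1-/- (SE 1.02) and 0.72 in Mr1+/+ (SE 0.80, edgeR adjusted p = 0.562), and the Mr1+/+ value was -0.15 without replicate 1 of Mr1+/+ PD fluid.

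Muc16, the mucin that mesothelin binds, followed another order. It was at 19.6 CPM in Mr1-/- PD fluid, against 8.71 and 3.32 CPM in Mr1-/- PBS, and at 10.8, 7.58 and 4.92 CPM in Mr1+/+ PD fluid, against 6.7 and 9.41 CPM in Mr1+/+ PBS. The Mr1-/- PD fluid sample was above all 7 other samples, while the Mr1+/+ groups overlapped. The 2 libraries summed in that sample had 20.3 and 19 CPM, from 327 and 294 counts. The log2 fold change for PD fluid was 1.70 in Mr1-/- (SE 0.59, edgeR adjusted p = 1) and -0.05 in Mr1+/+ (SE 0.46, edgeR adjusted p = 0.954).

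Krt19 rested on 1 library. It was at 28.1 CPM in Mr1-/- PD fluid, against 20.1 and 8.59 CPM in Mr1-/- PBS, and at 47.6, 17.3 and 26.8 CPM in Mr1+/+ PD fluid, against 15.4 and 340.8 CPM in Mr1+/+ PBS. The 340.8 CPM belong to Mr1+/+ PBS replicate 3, and every other sample was at 47.6 CPM or below. In that library 11 intestinal epithelial markers summed to 2661 CPM, against 24.6 to 36.3 CPM in the other 9 libraries. They included the goblet cell mucin Muc2 at 668.5 CPM and the brush border protein villin (Vil1) at 255.7 CPM, and Krt8, a keratin that pairs with Krt19, was at 588.9 CPM. The part of intestinal cells in its Krt19 value was not tested. The log2 fold change in Mr1+/+ was -2.54 (SE 1.32, edgeR adjusted p = 0.252), and 0.99 without that library. In Mr1-/- it was 0.97 (SE 1.75).

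The effect of PD fluid was then compared between genotypes. For this difference, Mr1-/- minus Mr1+/+, edgeR called 0% of all tested genes and no member, with 1 member (Muc16) and 13.2% of all genes at an unadjusted p under 0.05. DESeq2 called no member and 3.07% of all genes. The members' median difference was 0.33 in log2 fold change, against 0.01 over all genes. It was 1.35 without Mr1-/- PBS replicate 1 and -0.25 without Mr1-/- PBS replicate 2, and 0.90, 0.09 and 0.10 without Mr1+/+ PD fluid replicates 1, 2 and 3. The difference for Muc16 was 1.75 (SE 0.75, unadjusted p = 0.0499, edgeR adjusted p = 0.377), with 1.22 to 2.61 when each library was left out in turn. For Rspo1 it was -0.02 with a 95% interval of -1.38 to 1.33, and for Wt1 -0.12 with an interval of -2.68 to 2.44, so differences of several fold in either direction were within the error for Wt1. For Krt19 it was 3.51 (SE 2.17), and -0.02 without Mr1+/+ PBS replicate 3. No fit with a library left out varied the lone Mr1-/- PD fluid sample, as each of its libraries has a near copy.

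The genotypes were next compared under PBS. No member was called by edgeR in Mr1-/- PBS against Mr1+/+ PBS, where 0.013% of all genes were called, and no member had an unadjusted p under 0.05, against 8.64% of all genes; DESeq2 called no member and 1.38% of all genes. The members' median log2 fold change was -0.05. No member was higher or lower in both Mr1-/- samples than in both Mr1+/+ samples, where 20.5% of all genes were higher and 18.1% lower in this way. This near-zero median joins 2 unlike samples: it was -1.07 without Mr1-/- PBS replicate 1, 0.44 without Mr1-/- PBS replicate 2 and -0.20 without Mr1+/+ PBS replicate 3. Wt1 averaged 12.4 ± 9.93 CPM (SD, n = 2) in Mr1-/- PBS and 9.22 ± 3.71 CPM (SD, n = 2) in Mr1+/+ PBS. Rspo1 averaged 9.2 ± 3.54 CPM in Mr1-/- PBS and 8.76 ± 2.96 CPM in Mr1+/+ PBS (SD, n = 2 each). The spread within each group was larger than the difference for these genes. For Krt19 the log2 fold change was -3.63 (SE 1.61, edgeR adjusted p = 0.576), and -0.10 without Mr1+/+ PBS replicate 3.

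Under PD fluid the log2 difference between genotypes ran between -0.12 and 0.47 for 8 of the 10 genes, and Muc16 and Bnc1 were above that. No member was called by edgeR in Mr1-/- PD fluid against Mr1+/+ PD fluid, where 0.013% of all genes were called, and 1 member, Muc16, had an unadjusted p under 0.05, against 19.1% of all genes. DESeq2 called no member and 6.7% of all genes. Muc16 and Bnc1 were higher in the lone Mr1-/- PD fluid sample than in each of 3 Mr1+/+ PD fluid samples, as were 36% of all genes. The log2 fold change was 1.33 for Muc16 (SE 0.54, edgeR adjusted p = 0.24) and 0.66 for Bnc1 (SE 0.75, edgeR adjusted p = 0.689). With the 10 libraries as separate samples Muc16 was called higher (1.33, edgeR adjusted p = 0.0377), where 22.9% of all genes were called. For Rspo1 the value was 0.04, with a 95% interval of -0.97 to 1.05. Intervals of other members were wider, such as -2.45 to 2.50 for Msln and -4.61 to 4.37 for Krt19. Differences of several fold in either direction were thus within the error for these genes. The members' median was 0.16, and 0.73 without Mr1+/+ PD fluid replicate 1.

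Genes outside the 10 that mesothelium and other serosal cells are known to use were set beside them. Of 30 such genes, all tested, 4 rose and 1 fell in Mr1+/+ PD fluid against Mr1+/+ PBS, close to the share called over all genes (14.9%). Their median log2 fold change was 0.51, against -0.06 over all genes. Tm4sf1, a tetraspanin-like protein of endothelium and mesothelium, averaged 66.7 ± 8.87 CPM (SD, n = 3) in Mr1+/+ PD fluid and 25 ± 1.61 CPM (SD, n = 2) in Mr1+/+ PBS, a log2 fold change of 1.42 (edgeR adjusted p = 0.0124). Nkain4, a membrane protein that interacts with the sodium pump, averaged 8.35 ± 2.24 CPM in Mr1+/+ PD fluid (SD, n = 3) and 2.58 ± 1.27 CPM in Mr1+/+ PBS (SD, n = 2), a log2 fold change of 1.67 (edgeR adjusted p = 0.0329). Aldh1a2, which makes retinoic acid, and Pdpn, the surface mucoprotein podoplanin, each rose by 0.78 on the log2 scale (edgeR adjusted p = 0.0236 and 0.0365). Ezr, the ezrin that anchors microvilli, fell by 1.06 on the log2 scale, to 205 ± 17.6 CPM (SD, n = 3) in Mr1+/+ PD fluid against 427.8 ± 15.2 CPM (SD, n = 2) in Mr1+/+ PBS (edgeR adjusted p = 0.0124). Ezr is also abundant in lymphocytes, and Tm4sf1 and Pdpn in vessels, whose part was not tested. Without Mr1+/+ PD fluid replicate 3 none of the 5 was called, nor was any of 15356 genes, and without Mr1+/+ PD fluid replicate 2 only Ezr and Tm4sf1 were called, among 339 genes. Nkain4 and Pdpn also lost their calls without Mr1+/+ PD fluid replicate 1, without Mr1+/+ PBS replicate 2 and without Mr1+/+ PBS replicate 3.

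In the other comparisons none of those 30 genes was called. In Mr1-/- mice 22 of the 30 had a positive log2 fold change for PD fluid, as had 46.7% of all genes, with a median of 0.67. The median was 1.06 without Mr1-/- PBS replicate 1 and 0.50 without Mr1-/- PBS replicate 2, and the PD fluid side was a single sample. The smallest unadjusted p belonged to Pdpn (0.92, SE 0.26) and Ildr2 (1.37, SE 0.46), both with an edgeR adjusted p of 1. Under PBS, Mr1-/- minus Mr1+/+, the smallest p belonged to Ezr (-0.41) and Hoxa5 (0.83), both with an edgeR adjusted p of 0.566. Under PD fluid it belonged to Aldh1a2 (-0.85, edgeR adjusted p = 0.149) and Tm4sf1 (-0.98, edgeR adjusted p = 0.153). For the difference of the PD fluid effect, Ezr (0.95) and Tm4sf1 (-1.35) both had an edgeR adjusted p of 0.272.

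Of 17 genes of R-spondin and Wnt signalling 14 were tested, and in Mr1+/+ PD fluid against Mr1+/+ PBS 1 rose and 3 fell, against 14.9% of all genes called, with a median log2 fold change of -0.10. Lgr6, a receptor for Rspo1, rose by 2.39 on the log2 scale (edgeR adjusted p = 0.0426) but was scarce, at 2.71 ± 1.26 CPM (SD, n = 3) in Mr1+/+ PD fluid and 0.498 ± 0.208 CPM (SD, n = 2) in Mr1+/+ PBS. Rnf43, a ligase that removes Wnt receptors and that R-spondins counteract, fell by 0.99 (edgeR adjusted p = 0.035). The Wnt effector Lef1 fell by 1.15 (edgeR adjusted p = 0.0308), and its relative Tcf7 fell to 242.5 ± 62.2 CPM (SD, n = 3) in Mr1+/+ PD fluid, against 485.2 ± 163.3 CPM (SD, n = 2) in Mr1+/+ PBS (edgeR adjusted p = 0.0385). Both are also abundant in T cells, whose part was not tested. All 4 calls were lost without Mr1+/+ PD fluid replicate 2 and without replicate 3 of that group. Lgr6 was also lost without Mr1+/+ PBS replicate 1 or 3, Rnf43 without Mr1+/+ PBS replicate 3 or Mr1+/+ PD fluid replicate 1, and Tcf7 without either Mr1-/- PBS library. No gene of this list was called in the other comparisons. In Mr1-/- PD fluid against PBS the smallest p belonged to Rspo2 and Axin2 (0.43 on the log2 scale). Rspo2 was nearly absent, with 1 count in the Mr1-/- PD fluid sample, against 1 and 23 counts in Mr1-/- PBS samples, so that its difference rests on Mr1-/- PBS replicate 2. In the remaining comparisons it belonged to Rspo3 (1.66) and Lgr6 (1.43) between genotypes under PBS, to Lef1 (0.86) and Lrp5 (-0.64) under PD fluid, and to Lgr6 (-2.94) and Lef1 (1.07) for the difference of the effect, all as log2 values. The Rspo3 value also rests on Mr1-/- PBS replicate 2, at 7.1 CPM, against 1.77 CPM in replicate 1 and 1.08 and 1.76 CPM in Mr1+/+ PBS samples.

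Of 11 relatives of the members in other tissues (among them uroplakins, Gpm6b, basonuclin 2, other Lrrn genes and membrane mucins) 9 were tested, and none was called in any comparison. In Mr1+/+ PD fluid against PBS their median log2 fold change was 0.07, and the smallest p belonged to Muc4, an intestinal mucin, and Lrrn2 (0.93, SE 0.36). Muc4 rests on Mr1+/+ PBS replicate 3, which had 744 counts where every other sample had 0 to 2, and without that library it no longer passed the filter. Mr1-/- PD fluid against PBS gave Muc1 (1.57) and Lrrn1 (-1.07). Between genotypes, Mr1-/- over Mr1+/+, Muc1 had -1.97 under PBS, or -0.36 without Mr1+/+ PBS replicate 3, and Gpm6b (0.42) and Bnc2 (0.46) had the smallest p under PD fluid. For the difference of the PD fluid effect Muc1 had 2.41, or 0.81 without that Mr1+/+ PBS library.

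The genes whose pattern was most like the members' were found by the root mean square difference between their centred log2 CPM and the members' mean over the 8 samples, among 13972 other genes with a mean of at least 1 CPM. The nearest was Ppl, a plakin of cell junctions, at 0.14, where the median over all genes searched was 0.76. It was at 40.6 CPM in Mr1-/- PD fluid, against 23.5 and 6.7 CPM in Mr1-/- PBS, and at 44.3, 22.5 and 20.1 CPM in Mr1+/+ PD fluid, against 17.4 and 18.2 CPM in Mr1+/+ PBS. Then came the ligand Wnt2b (0.25), Capn6 (0.26), the stress response factor Atf3 (0.27), Tmem151a (0.27), the growth factor Fgf1 (0.28), the transporter gene Slc38a11 (0.29) and Ildr2 (0.30). All 8 were lowest in Mr1-/- PBS replicate 2 and highest in Mr1+/+ PD fluid replicate 1 or in the Mr1-/- PD fluid sample. The members themselves lay 0.22 (Lrrn4) to 0.44 (Muc16) from their mean, apart from Krt19 at 1.48. With Krt19 left out of the mean, 6 of the 8 were named again, and Igfbp6 and Tmem119 replaced Wnt2b and Slc38a11. Ildr2 and Igfbp6 also stand on the list of 30 further mesothelial genes.

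**Figure D4:**
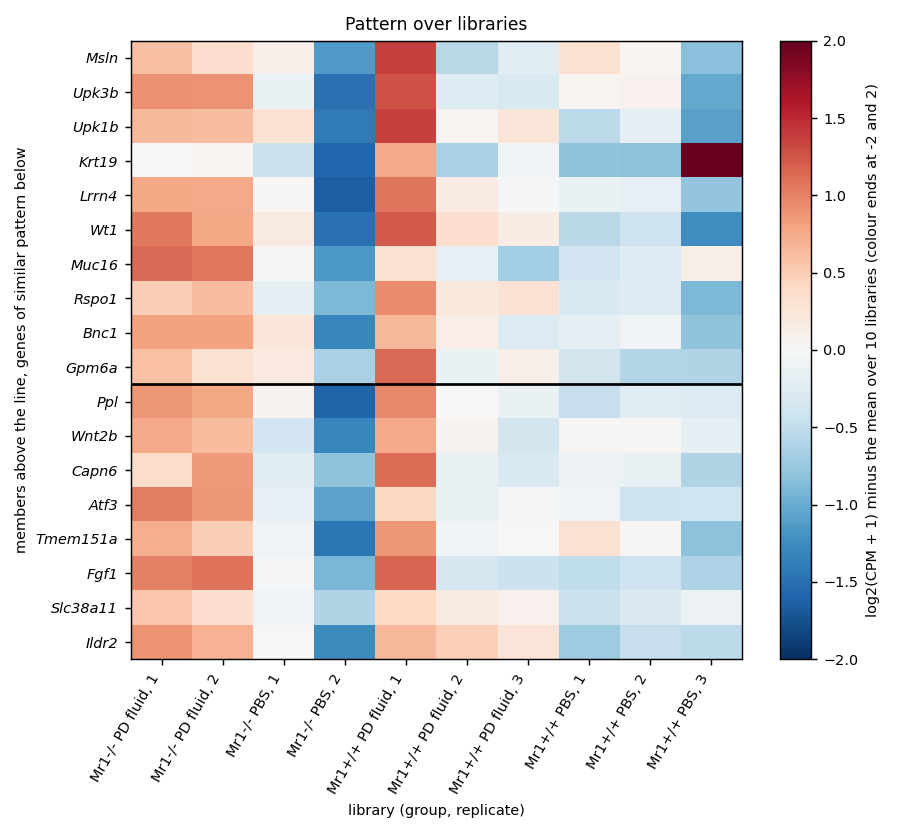
Log2(CPM + 1) of the 10 mesothelial genes (above the line) and the 8 genes of most similar pattern (below it) in the 10 libraries, each minus its mean over the libraries, with colours ending at -2 and 2. The columns of Mr1-/- PD fluid and of Mr1+/+ PD fluid replicate 1 are red for most genes and that of Mr1-/- PBS replicate 2 is blue for all, while Krt19 departs in Mr1+/+ PBS replicate 3.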

How the data were processed

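RNA was measured by sequencing in 10 libraries of mouse peritoneum. Per the labels' protocols, libraries were made from poly-A RNA by random priming, with neither a strand mark nor molecular identifiers mentioned, so duplicates made by PCR are not removed by identifiers. The counts deposited by the authors are raw whole numbers, 1 row per gene name, on build mm10 per the submitters' processing notes. Which aligner and annotation made them is not given in the sources used here. The 21899 rows were summed by symbol to 21877. The 2 near-identical pairs of libraries were summed, filterByExpr of edgeR 4.0.16 (R 4.3.3) kept 15385 genes, and TMM scaled the libraries. Quasi-likelihood F tests (robust) on 4 group means, with 4 residual degrees of freedom, gave 5 contrasts, adjusted by Benjamini-Hochberg over all tested genes. Log2 CPM used a prior count of 2. Standard errors came from the fold change and F. RPKM used exon lengths of GENCODE M21, which also supplied coordinates. DESeq2 1.42.0, other scaling, other filters, all 10 libraries, a replicate block and leaving out each library were alternatives. The code was tested on simulated data.

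The members and the gene lists were chosen with earlier results of these data known. Named genes were the 10 members, Mr1, up to 4 called genes of each further list or, with none called, the 2 with the smallest p, markers of other cells at 0, and the 8 genes of most similar pattern. Some genes that this rule names are not reported here. Muc2, Vil1, Krt8, Upk1a, Pparg, Podxl, Igfbp6 and Tmem119, as well as the fifth called gene of the mesothelial list, were named after their values were seen.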

Additional observations from a re-analysis of the deposited data

How the results depend on the processing

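Of the 5 comparisons, edgeR called 0 members in each with RLE scaling, with no filter or a stricter filter on low counts, and when each library was left out in turn (lowest 0, highest 0). For PD fluid in Mr1+/+, 15.2% of all genes were called with RLE scaling, 12.9% with no filter and 19.8% with the stricter filter. In that comparison 2151 genes were called without Mr1+/+ PD fluid replicate 1, 339 without replicate 2 and none without replicate 3. In the other 4 comparisons almost no gene was called in these fits, so 0 members called says little about the members there. Members called for PD fluid against PBS in Mr1+/+ numbered 3 with 10 libraries as separate samples (Wt1, Rspo1, Gpm6a), 3 of the same names with the replicate block, 1 with only the groups compared (Rspo1, adjusted p = 0.0404) and 4 with DESeq2, among 5549, 5537, 2505 and 3780 genes called, against 2286. Between genotypes under PD fluid, 1 member (Muc16) was called with 10 libraries as separate samples and 0 with the replicate block, among 3400 and 2428 genes, against 2. Same-numbered libraries of different groups correlated at -0.16 to 0.17 in their deviations from group means, others at -0.18 to 0.18. In a group of 2 libraries the deviations mirror each other, so this check cannot decide whether the numbers pair the samples. Of the further mesothelial genes in Mr1+/+, 11 of 28 tested were called with 10 libraries and 13 of 28 with the block. Of all genes 37.5% and 37.4% were called there. With only the groups compared 9 of 28 were called (17.4% of all genes) and with DESeq2 11 of 30 (24.6%), against 5 of 30 (14.9%). Leaving out a library gave 0 to 9, the 0 without Mr1+/+ PD fluid replicate 3, where no gene at all was called. Of the R-spondin and Wnt genes, 14 of them tested in the main fit, 6 were called with 10 libraries, the block, the stricter filter and DESeq2. Of all genes 37.5%, 37.4%, 19.8% and 24.6% were called there. With no filter 5 were called (12.9% of all genes), with RLE scaling 4 (15.2%) and with only the groups compared 4 (17.4%), against 4 (14.9%). Leaving out a library gave 0 to 4. These alternatives for the lists, their medians, Muc1 and Muc4 and the pattern without Krt19 were chosen after seeing the data. Depth limited Bnc1 most, with 19 counts in Mr1-/- PBS replicate 2. The causes of these changes were not tested.

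The following log2 fold changes changed sign. With 10 libraries as separate samples they were 0.03 for Muc16 (PD fluid, Mr1+/+), -0.04 for Rspo1 and -0.02 for Bnc1 (genotype, PBS) and 0.08 for Rspo1 (difference of the effect). With the replicate block they were -0.14 for Upk1b, -0.09 for Wt1, -0.22 for Rspo1 and -0.40 for Bnc1 (genotype, PBS), -0.06 for Msln, 0.51 for Krt19 and -0.08 for Rspo1 (genotype, PD fluid), and 0.21 for Wt1 and 0.13 for Rspo1 (difference of the effect). Leaving out each library in turn gave these ranges where a sign changed. For PD fluid in Mr1+/+ they were -0.15 to 1.06 for Msln, -3.01 to 0.99 for Krt19 and -0.36 to 0.21 for Muc16. Between genotypes under PBS they were -0.98 to 0.35 for Msln, -1.15 to 0.23 for Upk3b, -0.88 to 1.02 for Upk1b, -1.35 to 0.48 for Lrrn4, -0.80 to 1.06 for Wt1, -1.28 to 0.12 for Muc16, -0.40 to 0.41 for Rspo1, -1.33 to 0.81 for Bnc1 and -0.12 to 0.75 for Gpm6a. The ends of these 9 ranges came from leaving out Mr1-/- PBS replicate 1 and replicate 2. Under PD fluid they were -0.33 to 0.89 for Msln, -0.30 to 0.51 for Upk1b, -0.43 to 0.35 for Krt19, -0.12 to 0.33 for Rspo1 and -0.28 to 0.48 for Gpm6a. For the difference of the effect they were -0.32 to 1.06 for Msln, -1.07 to 0.84 for Upk1b, -0.02 to 4.25 for Krt19, -0.17 to 1.65 for Lrrn4, -0.77 to 1.08 for Wt1, -0.37 to 0.43 for Rspo1, -0.15 to 1.99 for Bnc1 and -0.77 to 0.10 for Gpm6a. For PD fluid in Mr1-/- no member changed sign in any of these alternatives. None of them could vary the PD fluid side, as leaving out either of its 2 near-identical libraries kept the other.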
